A study of Rattus norvegicus with 12 samples.

Results

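Heat shock proteins and their partner chaperones bind unfolded or partly folded proteins, help them to fold and keep them from clumping. From this group, 10 genes were taken by gene symbol, with no threshold on their values but with earlier results of these data known, and 9 of the 10 had a value here, among 9653 named genes in all. They were the HSP70 genes Hspa8 and Hspa2, the HSP110 genes Hspa4 and Hsph1, the HSP90 genes Hsp90aa1 and Hsp90ab1, the small heat shock protein gene Cryab, and the chaperonin genes Hspd1 and Hspe1. Hspd1 and Hspe1 encode proteins that work inside mitochondria, so the set is not wholly cytosolic. For the small heat shock protein gene Hspb1 no expression value was analysed here, and its promoter alone was searched. Hsp90ab1 had 2 probes, which were averaged, and each of the other 8 genes had 1 probe. All 9 genes had a value on all 12 arrays.

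The samples were cortical neurons of rat (Rattus norvegicus), isolated from fetuses of 3 pregnant rats on day 17 of pregnancy and pooled within each mother. On day 16 in culture, plates were exposed for 6 h to halothane at 3 MAC, halothane at 1 MAC or isoflurane at 3 MAC, or were kept in air as the control, and all were harvested after another 6 h of recovery. MAC, the minimum alveolar concentration, is a unit of anaesthetic potency, so equal MAC values are doses of different gases matched on that scale. The gases differ in backbone, an alkane in halothane and an ether in isoflurane, both halogenated. The gases were given in a sealed chamber inside the incubator and the control plates stood outside that chamber, so time in the chamber and gas cannot be told apart in any comparison with control. Each group had 3 two-colour arrays, and on every array RNA of 1 sample was set against 1 pool of control RNA. The labels give 4 plates per rat, which allows 1 plate of each mother in every group. They do not fully settle how plates of 1 mother were spread over the groups, so the p-values measure only the spread between these samples.

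Every value below is a log2 ratio of the sample to that pool. The deposited values lay between limits of 2 and −2, which is 100-fold on a log10 scale, and they were multiplied by 3.322 to give log2. The base and the direction, sample over pool, are likely but not stated: the sample was in the Cy5 channel on all arrays, and ratios of this scanner type run Cy5 over Cy3. A ratio to a pool gives no absolute level, so genes can be compared only in how they differed between groups.

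In resting cells, the heat shock transcription factor HSF1 is held inactive, partly by chaperones themselves. When unfolded proteins draw the chaperones away, HSF1 forms trimers and binds heat shock elements, which are inverted repeats of the 5-base unit nGAAn in the promoters of its target genes. In the brain, Hspa8 and Hsp90ab1 are made at high levels at all times, and Cryab is known as a gene of astrocytes and oligodendrocytes more than of neurons.

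Promoters of the 8 members with an entry in the RefSeq promoter table were searched, to show which of them carry the DNA sequence that HSF1 is known to bind. Cryab and Hsp90aa1 had no entry, so their promoters were not searched. The windows ran from 250 bases before to 50 bases after each start in the table (build GRCr8). The 2-unit element was searched as GAANNTTC and TTCNNGAA, and the 3-unit element as GAANNTTCNNGAA and, for the other strand, TTCNNGAANNTTC. A 3-unit match contains 2-unit matches. It was found in 4 of the 8 windows, those of Hspa8, Hspd1, Hspe1 and Hsph1, against 0.798% of all 33469 promoter windows of the table. A 2-unit match was found in 6 of the 8, which adds Hspa2 and Hspb1, against 15.85% of all windows. The 4 windows below show the contrast between 3 genes with a 3-unit element and Hspa2, which has a single 2-unit match 64 bases before its start, and the capitals mark the matches. The regions are chr9:64084077-64084376 for Hspe1, chr12:10427118-10427417 for Hsph1, chr8:50080264-50080563 for Hspa8 and chr6:100864192-100864491 for Hspa2, all on the plus strand.
Hspe1: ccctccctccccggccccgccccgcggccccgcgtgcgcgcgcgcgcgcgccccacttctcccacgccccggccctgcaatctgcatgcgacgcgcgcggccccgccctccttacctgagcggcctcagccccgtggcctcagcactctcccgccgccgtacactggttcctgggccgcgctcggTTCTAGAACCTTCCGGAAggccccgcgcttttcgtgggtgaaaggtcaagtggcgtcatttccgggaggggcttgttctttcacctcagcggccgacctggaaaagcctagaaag
Hsph1: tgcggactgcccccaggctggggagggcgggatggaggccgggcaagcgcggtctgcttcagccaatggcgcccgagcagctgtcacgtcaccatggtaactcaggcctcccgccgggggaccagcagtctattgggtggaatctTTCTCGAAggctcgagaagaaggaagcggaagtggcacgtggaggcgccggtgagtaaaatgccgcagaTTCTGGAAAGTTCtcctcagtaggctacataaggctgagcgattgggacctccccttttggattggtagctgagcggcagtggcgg
Hspa8: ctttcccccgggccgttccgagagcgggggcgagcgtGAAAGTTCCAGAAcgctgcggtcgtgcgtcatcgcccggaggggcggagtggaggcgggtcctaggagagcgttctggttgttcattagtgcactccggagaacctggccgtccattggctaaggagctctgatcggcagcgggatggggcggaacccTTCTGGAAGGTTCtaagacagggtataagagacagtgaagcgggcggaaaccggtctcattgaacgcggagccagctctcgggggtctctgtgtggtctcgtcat
Hspa2: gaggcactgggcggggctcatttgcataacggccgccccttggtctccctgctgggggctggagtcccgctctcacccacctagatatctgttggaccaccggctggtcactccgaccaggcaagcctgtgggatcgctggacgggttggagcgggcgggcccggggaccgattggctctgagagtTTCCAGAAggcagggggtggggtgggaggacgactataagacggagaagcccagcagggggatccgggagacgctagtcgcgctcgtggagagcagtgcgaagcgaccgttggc

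The Hspa8 window held 2 separate 3-unit matches, which began 213 and 55 bases before the start. In Hsph1 the 3-unit match began 36 bases before the start, with another 2-unit match at 105 bases. Hspd1 and Hspe1 lie head to head, and their windows overlapped by 211 bases, so the element printed for Hspe1 is the same stretch of DNA that is counted for Hspd1. No match was found in the windows of Hspa4 and Hsp90ab1. The start used by the table lies inside the annotated gene for Hspa2, Hsp90ab1, Hspd1 and Hspa4, by 270, 174, 295 and 2159 bases in that order, so their windows lie that much further downstream than the outermost start. A match is a description of the sequence and shows nothing about binding in these cells.

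Of the 12 arrays, 2 stood apart from the rest of their groups. Replicate 1 of halothane 1 MAC had a median log2 ratio of 0.28 and an SD of 0.838 over all spots, while on the other 11 arrays the median was within 0.0051 of 0 and the SD was between 0.323 and 0.493. Over 8933 genes its highest correlation with any other array was 0.179, whereas replicates 2 and 3 of halothane 1 MAC correlated at 0.760. Replicate 2 of control correlated at 0.761 on average with the 3 halothane 3 MAC arrays, but at 0.068 and −0.047 with replicates 1 and 3 of control. Both arrays were kept under their labels, and every comparison with control or halothane 1 MAC takes those labels as right. Spots at the limit of the deposited scale on 10 or more arrays numbered 471. Replicate 1 of halothane 1 MAC had 0 of them at the limit, and each other array had between 467 and 471. Exact zeros numbered 330 on that replicate, against 953 to 2124 on the other arrays. Whether control replicate 2 is a swapped sample, or halothane 1 MAC replicate 1 a failed hybridisation, or what else set them apart, was not tested. Differences printed below that either array moved by over 1.5 times, or across the threshold, are given with and without it. The mean of the 9 measured neuron markers was between −0.38 and 0.11 on all 12 arrays, which, as a ratio to a pool of the same culture type, does not show how pure the cultures were.

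**Figure D1:**
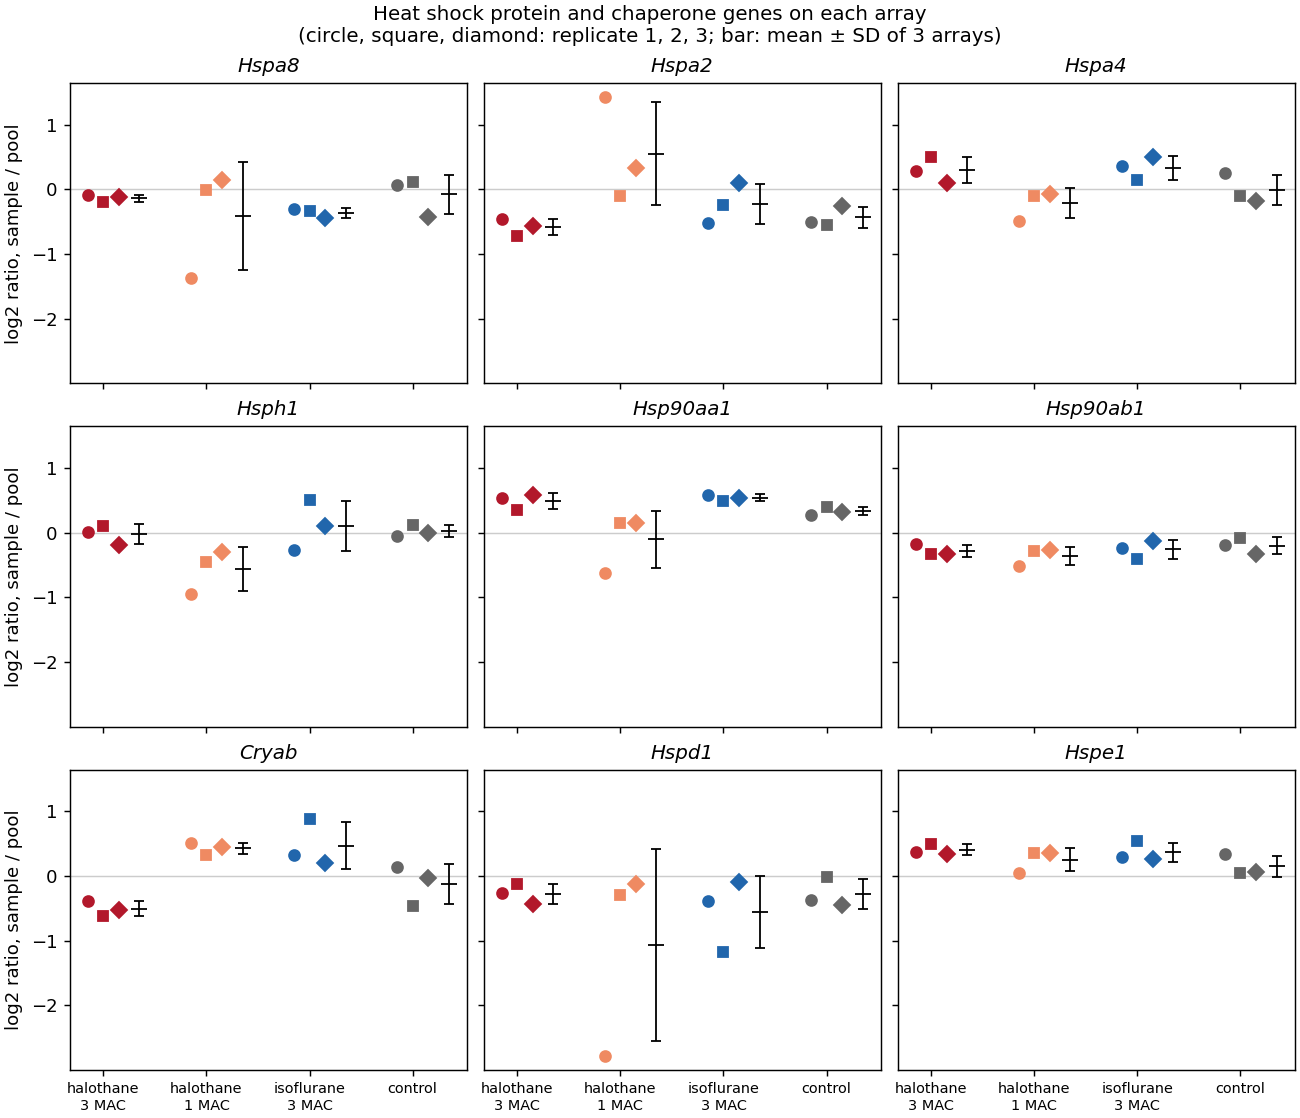
Log2 ratio of sample to control pool (vertical axis, the same in all panels) of the 9 measured genes on each of the 12 arrays, by group from left to right: halothane 3 MAC, halothane 1 MAC, isoflurane 3 MAC and control. Circle, square and diamond are replicates 1, 2 and 3, and bars are the mean ± SD of 3 arrays. The Cryab values of halothane 3 MAC lie between −0.62 and −0.39, below all halothane 1 MAC and isoflurane values, and replicate 1 of halothane 1 MAC is the far point in the panels of Hspa8, Hspa2 and Hspd1. That array is also the lowest point, by a smaller gap, in the panels of Hsp90aa1, Hsph1, Hspa4 and Hsp90ab1.

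Of the 9 genes, Cryab was the only one that passed the test in any of the 5 comparisons, and it did so in halothane against isoflurane at 3 MAC. Cryab, or alpha-B crystallin, is a small heat shock protein that holds unfolded proteins without using ATP. Its log2 ratios were −0.39, −0.62 and −0.52 in replicates 1 to 3 of halothane 3 MAC, 0.50, 0.33 and 0.45 in those of halothane 1 MAC, 0.32, 0.88 and 0.20 in those of isoflurane 3 MAC, and 0.13, −0.47 and −0.03 in those of control. All 3 halothane 3 MAC values were below every halothane 1 MAC and isoflurane value, and they overlapped the controls only through control replicate 2. Cryab was lower in halothane 3 MAC than in isoflurane 3 MAC by 0.98 ± 0.20 (log2 difference −0.98, SE 0.20), which is 1.97-fold, with a 95% interval of −1.42 to −0.54 and an adjusted p of 0.0293. The mean was −0.51 ± 0.12 in halothane 3 MAC and 0.47 ± 0.36 in isoflurane 3 MAC (SD, n = 3 each). The call was lost when any 1 of the 6 arrays of halothane 3 MAC or isoflurane was left out (adjusted p between 0.0646 and 0.122), with the difference still between −1.11 and −0.77. It was kept in the 6 fits without 1 control or halothane 1 MAC array, and without both arrays that stood apart (adjusted p = 0.00292). In the 6 fits without 1 halothane 3 MAC or isoflurane array, 1 to 61 of all features passed, against 580 with every array. The loss in those fits was therefore not limited to Cryab.

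The difference of Cryab between halothane 3 MAC and halothane 1 MAC was −0.94 ± 0.20 (95% interval −1.38 to −0.49), and it did not pass the test (adjusted p = 0.0618). It passed in a fit on these 2 groups alone (adjusted p = 0.0382), without control replicate 2 (adjusted p = 0.0166), and without both that array and halothane 1 MAC replicate 1 (−0.90, adjusted p = 0.0138). Against control, the differences of Cryab were −0.39 in halothane 3 MAC (95% interval −0.83 to 0.05, adjusted p = 0.816), 0.55 in halothane 1 MAC (0.11 to 0.99, 0.626) and 0.59 in isoflurane 3 MAC (0.15 to 1.03, 0.320). None of these passed the test. The 3 comparisons with control share the same control arrays, and 1 of those, replicate 2, lay near the halothane 3 MAC values. Without it the 3 differences were −0.56, 0.38 and 0.42, again with none past the threshold.

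Astrocyte markers were low on the same arrays as Cryab. The mean of 12 measured astrocyte markers of 14 listed was −0.93, −0.99 and −1.05 in halothane 3 MAC, 0.12, 0.13 and 0.12 in halothane 1 MAC, 0.11, 0.05 and 0.21 in isoflurane 3 MAC, and 0.34, −0.93 and 0.19 in control. Gfap, the intermediate filament of astrocytes, was at −2.21, −2.59 and −2.32 in halothane 3 MAC and at −1.91 in control replicate 2, against 0.35 or above in the other 2 controls. Of the 12 markers, 4 were lower and 1 was higher past the threshold in halothane 3 MAC than in isoflurane 3 MAC, beside 2.47% lower and 1.03% higher of all features, and their median difference was −1.06, beside 0.006 over all features. In RNA of a whole plate, fewer cells of a type and less RNA per cell cannot be told apart. The 12 arrays fell into 2 sets on this measure, so no correlation over all of them is given. Over the 8 arrays other than halothane 3 MAC and control replicate 2, Cryab and the astrocyte mean correlated at −0.74, so the shared pattern lay in the step between the sets. Within those 8 arrays the highest Cryab value, 0.88 in isoflurane replicate 2, stood beside the highest mean of the 9 oligodendrocyte lineage markers, 0.56, which was between −0.20 and 0.18 on the other 11 arrays. The mean of the 8 neural progenitor markers was also highest there, 0.21, and between −0.31 and 0.16 on the other 11 arrays. Over the 8 arrays Cryab correlated at 0.90 with the progenitor mean and at 0.82 with the oligodendrocyte lineage mean. The mean of the 9 measured endothelial and mural markers split the 12 arrays in the same way as the astrocyte mean, by a smaller step. It was −0.13, 0.03 and −0.06 in halothane 3 MAC and −0.13 in control replicate 2, and between 0.15 and 0.51 on the other 8 arrays. Over those 8 arrays Cryab correlated with it at 0.41. The part of these cell types in the Cryab result was not tested.

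**Figure D2:**
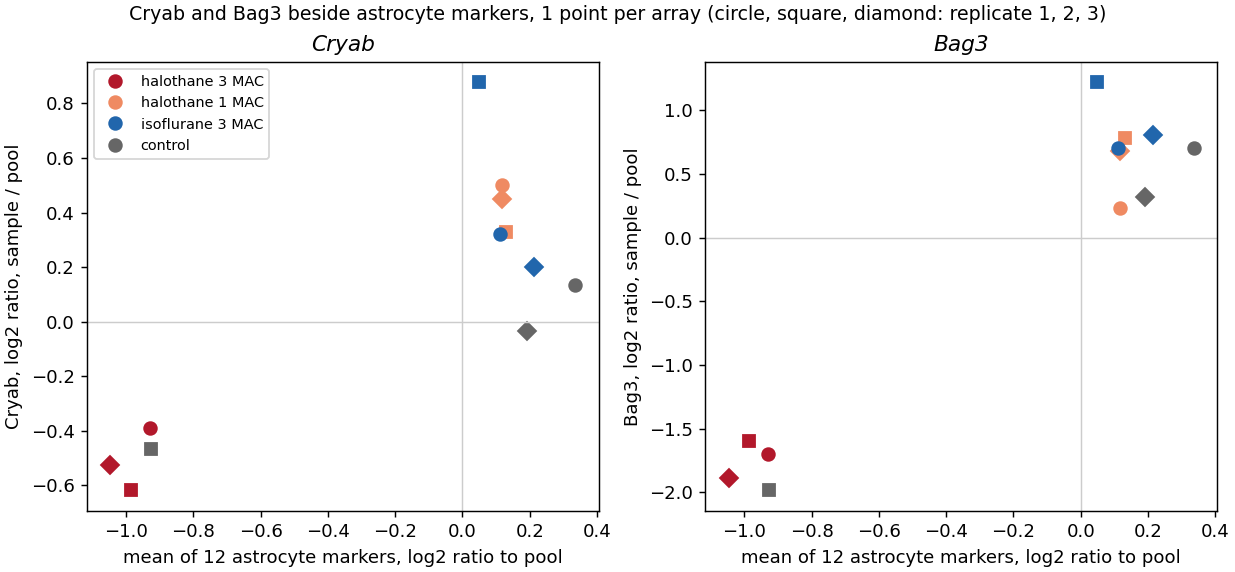
Log2 ratio to the control pool of Cryab (left) and of the chaperone partner gene Bag3 (right) on the vertical axis, against the mean log2 ratio of 12 astrocyte markers on the horizontal axis, with 1 point per array. The 3 halothane 3 MAC arrays and control replicate 2 sit together at an astrocyte mean between −1.05 and −0.93, with Cryab between −0.62 and −0.39, and the other 8 arrays sit to the right of 0.

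The 3 genes below were most like Cryab over the 12 arrays by Pearson's r among 8933 named genes, and all 3 values rest in part on the same step between sets. Fn1, which encodes the matrix protein fibronectin, had r = 0.969, Efemp2, an extracellular matrix glycoprotein gene, had 0.965, and Ceacam4 had 0.963. Over the 8 arrays other than halothane 3 MAC and control replicate 2 these were 0.908, 0.900 and 0.938. The arrays share 1 control pool, and the genes were picked as the highest of 8933.

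Among the HSP70 genes, Hspa2, best known for its role in sperm formation, had group means further apart than Hspa8. Its log2 ratios were −0.46, −0.72 and −0.57 in halothane 3 MAC, 1.43, −0.10 and 0.33 in halothane 1 MAC, −0.52, −0.23 and 0.10 in isoflurane 3 MAC, and −0.50, −0.54 and −0.25 in control. Every halothane 1 MAC value was above every halothane 3 MAC and control value, and replicate 1 was far above the other 2. The difference between halothane 3 MAC and halothane 1 MAC was −1.14 ± 0.32 (95% interval −1.83 to −0.44) and did not pass the test (adjusted p = 0.102). Without halothane 1 MAC replicate 1 it was −0.70 (adjusted p = 0.0823), and without control replicate 2 as well it was again −0.70 and passed (adjusted p = 0.0488). Halothane 1 MAC minus control was 0.99 ± 0.32 (adjusted p = 0.626), or 0.55 without replicate 1. Between halothane and isoflurane at 3 MAC the difference was −0.36, with a 95% interval of −1.06 to 0.33. The genes most like Hspa2 over the 12 arrays were Adss2 (r = 0.960), an enzyme of AMP synthesis, Igsf10 (0.958) and Ccdc86 (0.957), and without halothane 1 MAC replicate 1 these values were 0.894, 0.844 and 0.833.

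Hspa8 encodes HSC70, the HSP70 that cells make without stress and that also strips clathrin from vesicles. Its log2 ratios were −0.09, −0.20 and −0.12 in halothane 3 MAC, −1.36, −0.01 and 0.14 in halothane 1 MAC, −0.30, −0.33 and −0.45 in isoflurane 3 MAC, and 0.07, 0.12 and −0.43 in control. Apart from halothane 1 MAC replicate 1, all arrays lay within 0.590 of each other. No comparison of Hspa8 passed the test, and halothane 3 MAC minus isoflurane 3 MAC was 0.22 with a 95% interval of −0.48 to 0.93, although all 3 halothane values were above all 3 isoflurane values.

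The HSP110 proteins Hspa4 and Hsph1 release ADP from HSP70 and so let it take up its next client. Hspa4 was at 0.29, 0.50 and 0.10 in halothane 3 MAC, −0.48, −0.10 and −0.07 in halothane 1 MAC, 0.36, 0.14 and 0.50 in isoflurane 3 MAC, and 0.26, −0.10 and −0.18 in control. Its 3 MAC values of both gases were all above 0, and those of halothane 1 MAC were all below. Hsph1 was at 0.02, 0.11 and −0.19 in halothane 3 MAC, −0.95, −0.46 and −0.30 in halothane 1 MAC, −0.27, 0.50 and 0.10 in isoflurane 3 MAC, and −0.05, 0.12 and −0.01 in control. All 3 halothane 1 MAC values of Hsph1 were below every other array. The difference between halothane 3 MAC and halothane 1 MAC was 0.51 ± 0.18 for Hspa4 (adjusted p = 0.171) and 0.54 ± 0.21 for Hsph1 (adjusted p = 0.212), and neither passed the test. Both differences were smaller without halothane 1 MAC replicate 1, at 0.38 for Hspa4 and 0.35 for Hsph1. The lower Hsph1 of halothane 1 MAC than of control, −0.59 ± 0.21, also missed the threshold (adjusted p = 0.626), and it was −0.40 without halothane 1 MAC replicate 1 and −0.35 without control replicate 2 as well.

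HSP90 folds and steadies signalling proteins such as kinases and steroid receptors. Hsp90aa1, the form that responds to stress, was at 0.53, 0.35 and 0.58 in halothane 3 MAC, −0.62, 0.15 and 0.15 in halothane 1 MAC, 0.59, 0.49 and 0.54 in isoflurane 3 MAC, and 0.27, 0.39 and 0.33 in control. The halothane 1 MAC arrays were below all others, and the isoflurane arrays were above all controls. None of these differences passed the test: halothane 3 MAC minus halothane 1 MAC was 0.59 ± 0.19 (adjusted p = 0.143), and 0.33 without halothane 1 MAC replicate 1 (adjusted p = 0.108). The 2 gases at 3 MAC differed by −0.05, with a 95% interval of −0.48 to 0.37. Hsp90ab1, the constant form, had group means of −0.28 ± 0.09 in halothane 3 MAC, −0.36 ± 0.14 in halothane 1 MAC, −0.26 ± 0.14 in isoflurane 3 MAC and −0.20 ± 0.13 in control (SD, n = 3 each). It had the narrowest range of the 9 genes over the 12 arrays, 0.441, and its 95% intervals stayed between −0.46 and 0.38 in all 5 comparisons. Its probes differed: 1 was below 0 on all 12 arrays, between −0.58 and −0.32, and the other ran between −0.62 and 0.16. The probe sequences were not used here, so cross-hybridisation between the close pairs Hspa2 and Hspa8, or Hsp90aa1 and Hsp90ab1, was not tested.

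Hspd1 (HSP60) and Hspe1 (HSP10) form the barrel and the lid of the mitochondrial chaperonin and share the promoter region described above. Hspd1 was at −0.27, −0.13 and −0.43 in halothane 3 MAC, −2.78, −0.30 and −0.13 in halothane 1 MAC, −0.40, −1.18 and −0.09 in isoflurane 3 MAC, and −0.38, −0.01 and −0.45 in control. A single array, halothane 1 MAC replicate 1, gave the lowest value, and the groups overlapped in every comparison. Hspe1 was at 0.37, 0.50 and 0.35 in halothane 3 MAC, 0.05, 0.36 and 0.36 in halothane 1 MAC, 0.30, 0.53 and 0.26 in isoflurane 3 MAC, and 0.34, 0.04 and 0.06 in control. All 3 halothane 3 MAC values of Hspe1 were above all 3 controls, but the difference, 0.26 ± 0.15, did not pass the test (adjusted p = 0.866). The 2 genes did not follow each other closely: over the 12 arrays r was 0.279, and without halothane 1 MAC replicate 1 it was −0.439, as a description of arrays that share 1 pool.

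Counted over the 9 genes, the only call in the 5 comparisons was that of Cryab. Against control, 0 of 9 passed in halothane 3 MAC, 0 had an unadjusted p under 0.05 and 4 were above 0, with a median difference of −0.04, beside 0.005 over all 16546 features tested, of which 0% passed and 6.59% had an unadjusted p under 0.05. Without control replicate 2, 6 of the 9 were above 0, the median was 0.04 and Cryab had an unadjusted p under 0.05, beside 13% of all features, and without halothane 1 MAC replicate 1 Hspe1 did, beside 14.4%. In halothane 1 MAC against control, 0 of 9 passed beside 0% of all features, although 4 had an unadjusted p under 0.05 (Hspa2, Hsph1, Cryab and Hsp90aa1), beside 7.54% of all features, and the median was −0.21, beside 0.08. Without halothane 1 MAC replicate 1 the unadjusted p was under 0.05 for 2 of them (Hspa2 and Cryab), beside 7.89%, and the median was 0.06, beside 0.002. Without control replicate 2 it was under 0.05 for Hspa2 alone, beside 5.42%. In isoflurane 3 MAC against control, 0 of 9 passed beside 0.0725% of all features, Cryab alone had an unadjusted p under 0.05, beside 10.1% of all features, and 6 were above 0 with a median of 0.21, beside 0.004. The unadjusted p was under 0.05 for 3 of 9 without halothane 1 MAC replicate 1 (Hsp90aa1, Cryab and Hspa4), beside 20.5%, and for 0 of 9 without control replicate 2, beside 7.33%. Between halothane 3 MAC and halothane 1 MAC, 0 of 9 passed beside 0% of all features, 5 had an unadjusted p under 0.05 (all those named for halothane 1 MAC against control, and Hspa4), and the median was 0.27, beside −0.08. Across all features 18.5% had an unadjusted p under 0.05 there, and the smallest adjusted p was 0.0607. Without halothane 1 MAC replicate 1 the count was 4 of 9, beside 21.2%, and the median was −0.01, beside 0.01. In halothane 3 MAC against isoflurane 3 MAC, 1 of 9 passed, Cryab, which was lower, beside 3.51% of all features in either direction and 2.47% lower, and the median was −0.04, beside 0.006. In the moderated F test of any difference among the 4 groups, 0 of 9 passed, with the smallest adjusted p for Cryab (0.0781), beside 0.205% of all features, and 5 of 9 had an unadjusted p under 0.05, against 2936 of 16546. Cryab alone of the 9 passed the F test without halothane 1 MAC replicate 1 (adjusted p = 0.0420), without control replicate 2 (0.0255) and without both (0.0101), beside 5.89%, 5.3% and 19.4% of all features.

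**Figure D3:**
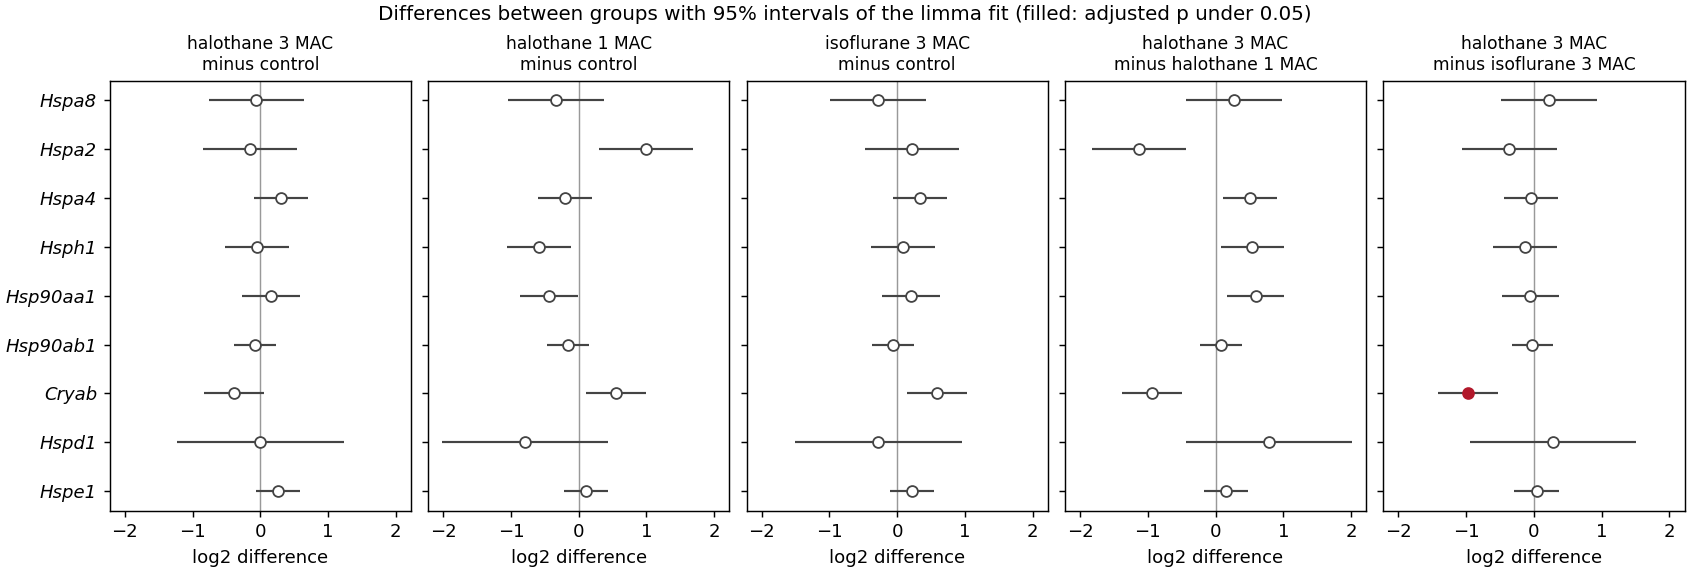
Log2 difference between 2 groups (horizontal axis, the first named group minus the other) for the 9 genes in the 5 comparisons, with 95% intervals of the limma fit. The filled point is Cryab at −0.98 in halothane 3 MAC minus isoflurane 3 MAC, the only difference with an adjusted p under 0.05, and the widest intervals are those of Hspd1.

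The 3 arrays of each group were fully apart for 1 of 9 genes in halothane 3 MAC against control (Hspe1), beside 16.1% of all features, and for 4 in halothane 1 MAC against control (Hspa2 and Cryab higher, Hsph1 and Hsp90aa1 lower), beside 10.2%. They were apart for 2 in isoflurane 3 MAC against control (Cryab and Hsp90aa1 higher), beside 22.7%, and for 2 in halothane 3 MAC against isoflurane 3 MAC (Hspa8 higher, Cryab lower), beside 37.4%. Between halothane 3 MAC and halothane 1 MAC they were apart for 5 (Hspa4, Hsph1 and Hsp90aa1 higher, Hspa2 and Cryab lower), beside 27.5%. Without halothane 1 MAC replicate 1, none of the 9 passed in halothane 3 MAC against halothane 1 MAC and 0.427% of all features did; without control replicate 2 it was 1 of 9 beside 4.52%, and without both it was 2 of 9 beside 10.6%. In halothane 3 MAC against isoflurane 3 MAC, Cryab alone of the 9 passed in all 3 of these fits, in which 12.6%, 6.57% and 19.1% of all features passed. The median range of the 9 genes over the 12 arrays was 1.445, beside 1.081 over all features, and without halothane 1 MAC replicate 1 it was 0.683, beside 0.692.

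Between the 2 gases at 3 MAC, the intervals show how large a difference these arrays allow. For Hsp90ab1, Hspe1, Hspa4, Hsp90aa1 and Hsph1 the 95% interval of halothane minus isoflurane lay within −0.60 and 0.37. For Hspa8 it reached 0.93, for Hspa2 −1.06 and for Hspd1 1.51, so differences of that size lie within the interval for these 3. The widths rested on an array outside this comparison, through the shared estimate of spread: without halothane 1 MAC replicate 1 the intervals were −0.09 to 0.53 for Hspa8, −0.74 to 0.02 for Hspa2 and −0.25 to 0.81 for Hspd1.

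The wider chaperone network was read from 111 listed genes in 9 lists, of which 79 were measured, and these lists were drawn up with earlier results of these data known. In halothane 3 MAC against isoflurane 3 MAC, 4 of the 79 were lower past the threshold (Bag3, Dnajc3, Pdia4 and Hspa5) and 0 higher, beside 3.51% of all features in either direction, and 18 (22.8%) had an unadjusted p under 0.05, beside 16.8% of all features. In each of the other 4 comparisons 0 of the 79 passed, while 2 (2.53%, beside 6.59% of all features) had an unadjusted p under 0.05 in halothane 3 MAC against control, 5 (6.33%, beside 7.54%) in halothane 1 MAC against control, 13 (16.5%, beside 10.1%) in isoflurane 3 MAC against control and 11 (13.9%, beside 18.5%) in halothane 3 MAC against halothane 1 MAC. In halothane 3 MAC against isoflurane 3 MAC, 12 of the 79 passed without halothane 1 MAC replicate 1, 5 without control replicate 2 and 16 without both, beside 12.6%, 6.57% and 19.1% of all features. In the other comparisons, leaving out both gave 4 of the 79 in halothane 3 MAC against control, 0 in halothane 1 MAC against control, 7 in isoflurane 3 MAC against control, all of them higher, and 11 in halothane 3 MAC against halothane 1 MAC, beside 11.5%, 0.0187%, 2.1% and 10.6% of all features. Without both, 18, 7, 18, 19 and 29 of the 79 had an unadjusted p under 0.05 in halothane 3 MAC, halothane 1 MAC and isoflurane 3 MAC against control, halothane 3 MAC against 1 MAC and halothane 3 MAC against isoflurane, beside 25.5%, 9.59%, 18.8%, 25.2% and 31.7% of all features. The medians of the 79 differences lay between −0.11 and 0.11 in all 5 comparisons.

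Bag3, a co-chaperone that hands HSP70 clients to autophagy and is itself an HSF1 target, had the largest difference of the 4. Its log2 ratios were −1.70, −1.60 and −1.89 in halothane 3 MAC, 0.23, 0.78 and 0.68 in halothane 1 MAC, 0.70, 1.22 and 0.80 in isoflurane 3 MAC, and 0.70, −1.98 and 0.32 in control. As for Cryab, the 3 halothane 3 MAC arrays and control replicate 2 were low and the other 8 were high. Bag3 was 6.20-fold lower in halothane 3 MAC than in isoflurane 3 MAC (log2 difference −2.63 ± 0.53, adjusted p = 0.0260). Halothane 3 MAC minus control was −1.41 ± 0.53 and missed the threshold (adjusted p = 0.706), but it was −2.24 and passed without control replicate 2 (adjusted p = 0.000802). Halothane 3 MAC minus halothane 1 MAC was −2.29 (adjusted p = 0.0676), and it too passed without control replicate 2 (adjusted p = 0.000239). The promoter window of Bag3, chr1:192533210-192533509 on the plus strand, held a 2-unit element 132 bases before the start, in capitals, and no 3-unit element; it is shown because Bag3 had the largest difference, and so was chosen after its values were seen.
Bag3: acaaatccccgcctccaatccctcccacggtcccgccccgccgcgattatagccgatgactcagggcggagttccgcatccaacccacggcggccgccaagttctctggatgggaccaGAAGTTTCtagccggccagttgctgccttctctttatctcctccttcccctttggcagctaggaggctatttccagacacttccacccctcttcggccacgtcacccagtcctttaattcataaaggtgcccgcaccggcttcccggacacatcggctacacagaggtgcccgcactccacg

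The other 3 called genes belong to the endoplasmic reticulum (ER), where secreted and membrane proteins fold. Dnajc3, a J-domain protein of the ER that also damps the kinase PERK, was at −0.29, −0.48 and −0.24 in halothane 3 MAC, −0.55, −0.02 and 0.11 in halothane 1 MAC, 0.98, 1.32 and 0.93 in isoflurane 3 MAC, and −0.43, −0.55 and 0.38 in control. All 3 isoflurane values were above every other array. Dnajc3 was 2.66-fold lower in halothane 3 MAC than in isoflurane 3 MAC (−1.41 ± 0.25, adjusted p = 0.0191). Pdia4, a protein disulfide isomerase, was lower by 0.82 ± 0.14 on the log2 scale (adjusted p = 0.0176), with −0.02, −0.15 and 0.06 in halothane 3 MAC against 0.70, 0.81 and 0.85 in isoflurane 3 MAC. Hspa5 (BiP), the HSP70 of the ER, was at −0.31, −0.38 and −0.46 in halothane 3 MAC against 0.54, 1.02 and 0.74 in isoflurane 3 MAC, a difference of −1.15 ± 0.28 (adjusted p = 0.0450). For Pdia4 and Hspa5 the isoflurane values were again above every other array, where the halothane 1 MAC values reached 0.32 and 0.25, and the controls 0.15 and 0.12. Each of the 4 calls was lost when any 1 of the 6 arrays of these 2 groups was left out, with adjusted p between 0.0584 and 0.170, although the differences stayed between −2.74 and −2.48 for Bag3, −1.49 and −1.29 for Dnajc3, −0.87 and −0.76 for Pdia4 and −1.26 and −1.02 for Hspa5. Over all features, 1 to 61 passed in these 6 fits, against 580 with every array, so the loss was not limited to these 4 genes. The call of Hspa5 was also lost without control replicate 1 or 3 or halothane 1 MAC replicate 2 (0.0520 to 0.0615), with median-centred arrays (0.0818) and with exact zeros kept (0.0645). No heat shock element was found in the promoter windows of Dnajc3, Pdia4 and Hspa5. Of the 10 measured ER chaperones of 14 listed, 3 were lower past the threshold in halothane 3 MAC than in isoflurane 3 MAC, beside 2.47% of all features. All 10 differences were below 0, while 8416 of the 16546 features were above 0, and their median was −0.66, beside 0.006 over all features. Against control, all 10 were above 0 in isoflurane 3 MAC with a median of 0.72, beside 0.004, but 0 passed the test, and 6 had an unadjusted p under 0.05, beside 10.1% of all features. Without halothane 1 MAC replicate 1 that count was 7 of 10, beside 20.5%, and without control replicate 2 it was 5, beside 7.33%. In the first of these fits 7 of the 79 network genes passed, all of them higher, beside 2.5% of all features. Pdia4 was among them (adjusted p = 0.00878).

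**Figure D4:**
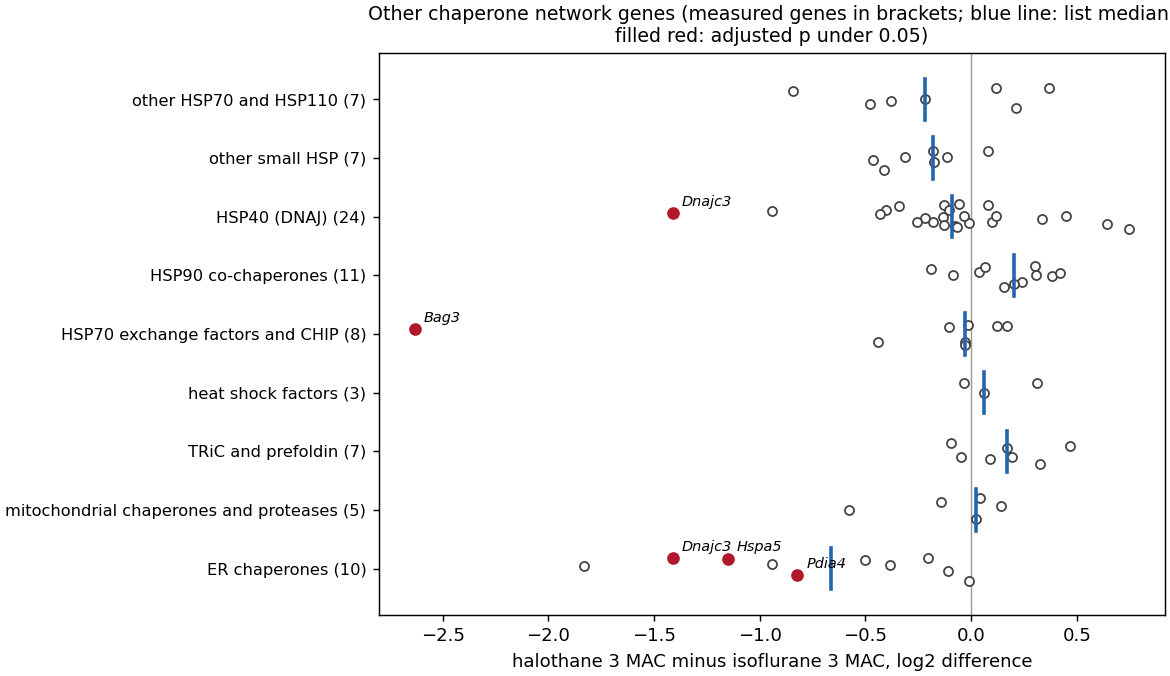
Log2 difference, halothane 3 MAC minus isoflurane 3 MAC (horizontal axis), of each measured gene in 9 lists of the chaperone network (vertical axis, number of measured genes in brackets), with 1 point per gene and a line at each list's median. Bag3, Dnajc3, Hspa5 and Pdia4 are filled as past the adjusted threshold, Dnajc3 stands in 2 lists, and all 10 ER chaperones lie below 0.

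Outside the ER, Bag3 was the only gene of the lists called with all 12 arrays. The inducible HSP70 gene Hspa1a was at −0.10, −0.12 and −0.08 in halothane 3 MAC, −0.01, 0.33 and 0.39 in halothane 1 MAC, 0.62, 0.13 and 0.37 in isoflurane 3 MAC, and 0.23, −0.26 and 0.33 in control. Its halothane 3 MAC values were below all halothane 1 MAC and isoflurane values, and the difference from isoflurane 3 MAC, −0.48 ± 0.19, did not pass the test (adjusted p = 0.216). Dnajb1, the J-domain partner of inducible HSP70, had a difference of 0.64 ± 0.24 (adjusted p = 0.175). Hspa9, the mitochondrial HSP70, had a difference of −0.84 ± 0.21 just short of the threshold (adjusted p = 0.0505). Without halothane 1 MAC replicate 1, Hspa9 (adjusted p = 0.00985) and Dnajb1 (0.0262) passed. Hspa9 also passed without control replicate 2 (0.0366), and Hspa1a passed only without both arrays (0.0219). The 7 measured of 9 other HSP70 and HSP110 genes had a median of −0.22, the 7 of 8 other small heat shock proteins −0.18, and the 24 of 31 J-domain genes −0.09, with 1 of them, Dnajc3, past the threshold. The 11 of 16 HSP90 co-chaperones had a median of 0.20, the 8 of 10 HSP70 exchange factors −0.03 with Bag3 past the threshold, the 3 of 4 heat shock factors 0.06, the 7 of 14 TRiC and prefoldin subunits 0.17, and the 5 of 8 mitochondrial chaperones and proteases 0.02, with 0 past the threshold in each but the one named. Hsf1 itself differed by −0.03 between the 2 gases at 3 MAC (adjusted p = 0.985).

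By the same rule the genes of smallest p in each direction were named for the comparisons without a call. Against control these were Fkbp5, a steroid receptor partner of HSP90, at 0.45 ± 0.16 in halothane 3 MAC (adjusted p = 0.706), with Bag3 as given above. In halothane 1 MAC they were Dnajc18 at 0.56 ± 0.16 and Dnaja2 at −0.57 ± 0.27 (adjusted p = 0.626 for both). Dnaja2 was at −1.40 on halothane 1 MAC replicate 1 and at −0.18 and −0.24 on the other 2, and its difference was −0.17 without replicate 1. In isoflurane 3 MAC they were Pdia4 at 0.74 ± 0.14 (adjusted p = 0.0836) and Dnajc7 at −0.68 ± 0.26 (adjusted p = 0.376). Pdia4 passed without halothane 1 MAC replicate 1 (adjusted p = 0.00878), in a fit in which 7 of the 79 genes and 2.50% of all features did. In halothane 3 MAC against halothane 1 MAC they were Hsp90b1, the HSP90 of the ER, at 0.99 ± 0.32 (adjusted p = 0.141), or 0.56 without halothane 1 MAC replicate 1, and Bag3. The highest in halothane 3 MAC against isoflurane 3 MAC was Dnajc7 at 0.75 ± 0.26 (adjusted p = 0.149), which passed without both arrays that stood apart (adjusted p = 0.0468). Dnajc7 was at −1.39 on isoflurane replicate 2, and without that array its difference was 0.44 from halothane 3 MAC, and −0.37 for isoflurane 3 MAC minus control.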

How the data were processed

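Per the labels, RNA of each sample was labelled with Cy5 and a pool of control RNA with Cy3, on 12 Agilent two-colour arrays. The authors deposited 1 table of 21575 spots with a log ratio per array, here taken as log10; the submitters' processing notes name Partek, and the normalisation is not given in the sources used here. A second support for the direction was arithmetic: over 90 genes with a control SD above 1 (log2), the mean linear ratio of the 3 controls to their pool had a median of 1.056 read as sample over pool and 1.579 read the other way, where an even pool gives 1.

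Values were multiplied by 3.322 to log2. Exact zeros (5.963% of values) were treated as missing, and 471 spots at the limit on 10 or more arrays, none of them named, were left out. Symbols came from the platform annotation (12750 spots with 1 symbol, 5 with several, 8820 with none), and 12720 matched RefSeq genes. Probes of a gene were averaged. limma 3.58.1 in R 4.3.3 fitted 4 group means with eBayes to the 16546 features that each group measured on 2 arrays or more, and p-values were adjusted over all features by Benjamini-Hochberg with a threshold of 0.05. The fit was tested on simulated data in which each gene had the same spread on every array, which does not cover arrays that stand apart. The number of arrays limits the precision.

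Same-numbered samples were checked for pairing: their deviations from the group means correlated between −0.077 and 0.097 in 18 pairs, 0 over 0.1, so no block was used. The 2 arrays that stood apart enter those deviations, so the check does not exclude shared mothers. The genes, the chaperone lists and the cell type lists were chosen with earlier results of these data known. From each chaperone list, genes that passed were named, and otherwise the gene of smallest p in each direction over all lists. Alternatives were other normalisations, zeros kept, array weights, a replicate block, the 2 groups alone, ratios against the pool and leaving out arrays.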

Additional observations from a re-analysis of the deposited data

Results flagged for a closer look

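The results below are those in which the test of halothane 3 MAC against isoflurane 3 MAC, both set against the same control pool, passed the adjusted threshold of the limma fit. Each of the 5 calls was lost when any 1 array of either group was left out (adjusted p between 0.0584 and 0.170), with the direction kept. Over all features, 1 to 61 passed in those fits, against 580 with every array, so the loss was not limited to these 5 genes. The call of Hspa5 was lost in other fits as well. Cryab differed by −0.98 on the log2 scale. Bag3 differed by −2.63. Dnajc3 differed by −1.41. Hspa5 differed by −1.15. Pdia4 differed by −0.82. In each of the 5 genes all 3 halothane values were below all 3 isoflurane values.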

How the results depend on the processing

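With all 12 arrays, the limma fit called 0 features in halothane 3 MAC against control, 0 in halothane 1 MAC against control, 12 in isoflurane 3 MAC against control, 0 in halothane 3 MAC against halothane 1 MAC, 580 in halothane 3 MAC against isoflurane 3 MAC and 34 in the F test. Array weights gave 724, 4, 346, 4209, 4390 and 2493 in the same order, and also called Cryab (−0.86), Hspa2 (−0.65) and Hsp90aa1 (0.38) in halothane 3 MAC against halothane 1 MAC. Quantile normalisation gave 1 in halothane 1 MAC against control, 4 in isoflurane against control, 152 in halothane 3 MAC against 1 MAC and 2 in the F test. Keeping exact zeros gave 1 in halothane 1 MAC against control, 7 in isoflurane against control and 1 in the F test, and median-centred arrays gave 5 in isoflurane against control. Fits on the 2 groups alone gave 1 in isoflurane against control, 292 in halothane 3 MAC against 1 MAC (Cryab among them) and 2782 in halothane 3 MAC against isoflurane. The replicate block gave 1 in isoflurane against control, 1 in the F test and 431 in halothane 3 MAC against isoflurane. In the last of these, Cryab stayed past the threshold (adjusted p = 0.0491), and Hspa5 did not (0.0608). By correlation the replicate numbers showed no pairing of the samples, which does not exclude one.

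Leaving out 1 array at a time gave 0 to 474 features in halothane 3 MAC against control, 0 to 5 in halothane 1 MAC against control, 1 to 410 in isoflurane against control, 0 to 727 in halothane 3 MAC against halothane 1 MAC, 1 to 2072 in halothane 3 MAC against isoflurane and 1 to 965 in the F test. Without both halothane 1 MAC replicate 1 and control replicate 2, a choice made after seeing the data, the counts were 1847, 3, 337, 1707, 3058 and 3104. The cause was not tested.

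Differences of the 9 genes that changed sign were all short of the threshold. Array weights gave 0.0997 for Hspa8 and 0.0711 for Hspd1 in halothane 1 MAC against control, −0.159 for Hspa8 and −0.0698 for Hspd1 in halothane 3 MAC against halothane 1 MAC, and −0.0144 for Hsph1 in isoflurane against control. Quantile normalisation gave 0.0739 for Hsp90aa1 and 0.0274 for Hspa4 in halothane 3 MAC against isoflurane. Hspd1 in halothane 3 MAC against control was −0.0041 with median-centred arrays. Without 1 array, or both named above, halothane 3 MAC against control ran from −0.233 to 0.0400 for Hspa8, −0.0832 to 0.133 for Hspd1 and −0.109 to 0.0372 for Hsph1. Halothane 1 MAC against control ran from −0.611 to 0.242 for Hspa8 and −1.27 to 0.196 for Hspd1. Isoflurane against control ran from −0.122 to 0.0199 for Hsp90ab1, −0.508 to 0.0341 for Hspd1 and −0.110 to 0.275 for Hsph1. Halothane 3 MAC against halothane 1 MAC ran from −0.0050 to 0.12 for Hsp90ab1, −0.202 to 0.552 for Hspa8 and −0.0627 to 1.27 for Hspd1. Halothane 3 MAC against isoflurane ran from −0.098 to 0.0150 for Hsp90aa1, −0.0980 to 0.0436 for Hsp90ab1, −0.139 to 0.0615 for Hspa4, −0.0336 to 0.508 for Hspd1, −0.0122 to 0.127 for Hspe1 and −0.320 to 0.0645 for Hsph1.

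The pool was also read as the only control, which leaves out the spread of the controls. In that reading halothane 3 MAC was −0.28 for Hspd1 and isoflurane −0.22 for Hspa2. Hspe1 passed in both (0.40 and 0.36, adjusted p = 0.0435 and 0.0413), as did Cryab (0.47, 0.0489) and Hsp90aa1 (0.54, 0.0248) in isoflurane. Such a reading also counts any offset of the control arrays from the pool. The control means were 0.33 for Hsp90aa1, 0.15 for Hspe1, −0.12 for Cryab, −0.28 for Hspd1 and −0.43 for Hspa2.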

Other observations

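The means of the other marker lists, as log2 ratios to the control pool, were as follows. The 9 microglia and macrophage markers averaged −0.42 in halothane 3 MAC, 0.09 in halothane 1 MAC, 0.03 in isoflurane 3 MAC and −0.09 in control. The 9 endothelial and mural markers averaged −0.05, 0.29, 0.21 and 0.07 in the same order of groups, the 7 fibroblast and meningeal markers 0.16, 0.17, −0.19 and −0.08, and the 8 neural progenitor markers 0.08, 0.04, −0.01 and −0.12. Over the 8 arrays other than halothane 3 MAC and control replicate 2, Cryab correlated at 0.900 with the progenitor mean and at 0.824 with the oligodendrocyte lineage mean, the 2 highest of 7 lists compared, while the other 5 lay between −0.741 and 0.412. Isoflurane replicate 2 was the highest of the 8 arrays for Cryab and for both of these lists.

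When the genes most like a member were chosen without halothane 1 MAC replicate 1, they were Cd9, Plpp2 and Cntf for Cryab (r = 0.984, 0.978 and 0.978 over 11 arrays) and Plat, Adss2 and F8 for Hspa2 (0.907, 0.894 and 0.893). Plat correlated with Hspa2 at only 0.255 over all 12 arrays.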
